A study of Mus musculus with 50 samples.

Results

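The 9 genes described here code for LIM homeodomain transcription factors (*Isl1*, *Isl2*, *Lhx1*, *Lhx3* and *Lhx4*), the motor neuron homeodomain factor *Mnx1*, the LIM-only proteins *Lmo1* and *Lmo4*, and the LIM domain binding protein *Ldb1*. They were picked by symbol from the 55385 gene rows of the RNA-seq tables. All 9 of them were kept by the filter on low counts in each main fit, though not in every alternative one. The study followed mouse spinal motor neurons from embryo to old age and stem cell derived motor neurons through 28 days of culture, by RNA-seq in 28 libraries and by ATAC-seq, which maps open chromatin, in 22 libraries. At E10.5 whole GFP-positive cells were sorted from embryos of the strain labelled C57BL/6- HB9-GFP (3 RNA libraries). At every later age cell nuclei were isolated from spinal cords of C57BL/6- Chat-Cre;SUN1-GFP-3xMYC mice, in which cells that express the cholinergic gene *Chat* carry a tagged nuclear envelope, with 2 RNA libraries at E13.5, 3 at P4, 2 at P13, 3 at P21, 3 at P56 and 2 at 2 years. The cultured motor neurons carry the same strain label, were grown from plating on with astrocytes from P2 mouse cortex, untreated, and were taken at day in vitro (DIV) 0 (2 RNA libraries), DIV7 (2) and DIV28 (3). DIV0 is the day of plating. The study describes separate isolations of nuclei from embryoid bodies, the stem cell aggregates dissociated for plating, and from co-cultures. A further 3 libraries came from DIV28 cultures kept for all 28 days in 1 uM tetrodotoxin (TTX), a sodium channel blocker that silences action potentials. Every one of these 11 groups had 2 ATAC-seq libraries. In tissue from E13.5 on, the study took RNA nuclei from brachial and lumbar cord, bound to beads. Its ATAC-seq nuclei were sorted and came from thoracic cord as well, as did the E10.5 cells. Each in vivo replicate pooled the cords of several embryos or animals, Chat-Cre marks all cholinergic neurons of the cord and not motor neurons alone, and no source used here says that same-group cultures were separate differentiations, so p-values measure the spread between these samples.

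LIM homeodomain factors bind DNA through the homeodomain and partner proteins through a pair of LIM domains. Ldb1 binds LIM domains and forms dimers, and in newborn motor neurons it joins Isl1 and Lhx3 into a complex that switches on motor neuron genes, while LIM-only proteins have no DNA-binding domain and compete for Ldb1. Mnx1, also called Hb9, holds motor neuron identity by repressing interneuron genes, and Lhx1 is known for its place in the lateral motor column and in several spinal interneuron classes.

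Several measured properties of the libraries bear on these genes. The library titled DIV0 replicate 3 was counted at DIV28, where the study's replicate numbers and the rule for these genes put it, and comparisons that use it are also given with it in DIV0 or left out. Its level of *Lhx4* was 7.89 CPM (counts scaled to library size), beside 84.6 and 111 CPM in the DIV0 libraries and 8.44 and 7.35 CPM in the other DIV28 libraries. Total expected counts ran from 2704682 to 21823500 per RNA library. The motor neuron markers *Chat*, *Slc18a3*, *Slc5a7*, *Prph* and *Ret* were above 1 CPM in at least 1 library of every group, with a summed level of 149 to 503 CPM at E10.5 and 684 to 835 CPM at P21. The 6 blood and vessel markers summed to 2516 to 4215 CPM at E13.5, 703 to 932 CPM at P4 and at most 78.4 CPM in every other group. The 4 oligodendrocyte markers summed to 1725 to 1748 CPM at P13 and 1002 to 1341 CPM at P21. In bulk samples fewer cells of a type and less RNA per cell cannot be told apart. Counting did not use strand, so reads from genes that overlap *Isl2*, *Lhx3*, *Lmo1*, *Lmo4* and the start of *Ldb1*, or that lie antisense to them, cannot be told from theirs.

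The sequences that carry the findings on open chromatin come from *Lhx4*, which has 2 annotated starts with different histories, and from 5 peaks far from the starts. In mm10 coordinates, *Lhx4* (ENSMUSG00000026468.14) lies on the minus strand at chr1:155698031-155751684. Sequence was read from RefSeq's GRCm38.p6 genome, the mm10 build, and each promoter is printed as the 250 bases before the start, 5′ to 3′ on the gene's strand. Capitals mark matches to TGANTCA, where N is any base, searched on both strands. This pattern is wider than the core recognised by AP-1 factors, TGACTCA or TGAGTCA. The downstream start (chr1:155742028-155742277) is the RefSeq start, and the upstream window (chr1:155751685-155751934) precedes a start that only the GENCODE vM21 annotation has.
Lhx4 before the downstream start: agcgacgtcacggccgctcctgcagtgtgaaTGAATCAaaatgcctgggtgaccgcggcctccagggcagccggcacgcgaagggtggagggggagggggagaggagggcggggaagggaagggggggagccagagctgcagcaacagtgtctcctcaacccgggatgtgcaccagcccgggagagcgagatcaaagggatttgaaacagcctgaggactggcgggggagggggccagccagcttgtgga
Lhx4 before the upstream start: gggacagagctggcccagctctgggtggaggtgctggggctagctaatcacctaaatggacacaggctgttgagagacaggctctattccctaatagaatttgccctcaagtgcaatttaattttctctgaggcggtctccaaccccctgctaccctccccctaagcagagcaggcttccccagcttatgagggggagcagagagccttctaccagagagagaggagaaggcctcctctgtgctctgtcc

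Of 32851 RefSeq promoters of this length, 6.75% held TGANTCA, as did 2 of the 15 promoters of the 9 genes (13.3%). Those 2 matches read TGAATCA in *Lhx4* and TGATTCA in *Lmo1*, outside the AP-1 core. The downstream *Lhx4* window was 66.0% G and C with 14 CG dinucleotides, and the upstream one was 55.6% with 1. The 15 promoters had a median of 22 CG dinucleotides and 68.4% GC, beside 6 and 52.4% over all promoters. TAATTA, a core that many homeodomains bind, was found in 2 of the 15 (13.3%), beside 4.84% of all promoters. Both are overlapping windows of *Lmo1* that hold the same match. TGACGTCA, the cyclic AMP response element, was found in 1 of 15 (6.67%, *Isl2*, 3 bases before the start), beside 1.55%. A match is a run of letters and was not tested as a site.

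For peaks away from the starts, the 300 bases around the highest summit are printed on the plus strand. The *Isl1* and *Mnx1* regions are shown because both libraries of E13.5 and DIV0 had a peak there and no other group did. The *Lhx4* region was open in tissue at every age but only at DIV0 in culture. The *Lmo4* and *Ldb1* regions had peaks in all DIV28 libraries, with or without tetrodotoxin, and in no tissue library. Only the 75000 peaks with the lowest p of each library are counted here, so weaker peaks may be present.
Isl1 region 1, chr13:116279390-116279689: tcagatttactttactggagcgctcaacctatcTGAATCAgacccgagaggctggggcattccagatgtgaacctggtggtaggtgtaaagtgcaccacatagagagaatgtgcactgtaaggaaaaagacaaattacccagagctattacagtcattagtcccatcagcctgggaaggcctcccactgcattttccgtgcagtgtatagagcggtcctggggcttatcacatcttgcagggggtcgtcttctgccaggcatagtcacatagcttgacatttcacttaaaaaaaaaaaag
Mnx1 region 9, chr5:29497313-29497612: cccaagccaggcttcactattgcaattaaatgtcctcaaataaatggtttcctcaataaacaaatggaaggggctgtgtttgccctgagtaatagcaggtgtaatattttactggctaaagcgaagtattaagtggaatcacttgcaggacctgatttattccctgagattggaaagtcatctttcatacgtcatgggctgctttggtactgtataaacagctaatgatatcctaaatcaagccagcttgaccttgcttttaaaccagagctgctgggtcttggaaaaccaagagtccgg
Lhx4 region 4, chr1:155681403-155681702: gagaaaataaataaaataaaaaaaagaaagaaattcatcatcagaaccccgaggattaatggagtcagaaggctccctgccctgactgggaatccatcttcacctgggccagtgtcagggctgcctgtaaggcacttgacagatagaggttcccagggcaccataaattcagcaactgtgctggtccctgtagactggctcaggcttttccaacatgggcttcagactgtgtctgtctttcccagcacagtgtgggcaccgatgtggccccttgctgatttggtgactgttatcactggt
Lmo4 region 2, chr3:144153434-144153733: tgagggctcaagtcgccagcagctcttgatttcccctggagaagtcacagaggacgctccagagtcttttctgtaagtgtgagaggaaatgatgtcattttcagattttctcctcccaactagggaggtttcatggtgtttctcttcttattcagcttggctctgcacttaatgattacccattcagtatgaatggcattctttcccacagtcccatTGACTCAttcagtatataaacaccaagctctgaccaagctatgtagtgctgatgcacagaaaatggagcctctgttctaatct
Ldb1 region 5, chr19:46020390-46020689: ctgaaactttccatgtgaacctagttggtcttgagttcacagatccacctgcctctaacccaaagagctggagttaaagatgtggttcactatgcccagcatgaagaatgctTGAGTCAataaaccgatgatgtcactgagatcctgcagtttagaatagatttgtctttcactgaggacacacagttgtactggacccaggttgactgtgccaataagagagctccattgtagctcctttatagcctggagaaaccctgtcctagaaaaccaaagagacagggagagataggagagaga

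In vivo, most of these genes fell sharply between E10.5 and E13.5 and changed little after P21. A gene was called at the study's limits, an unadjusted p under 0.001 and at least a 2-fold change in edgeR's quasi-likelihood test, and adjusted p-values below are Benjamini-Hochberg values over all genes tested. From E10.5 to E13.5, 8 of the 9 genes were called lower and none higher, where 19.4% of the 15030 genes tested were called lower and 44.1% in either direction. The median log2 fold change was -2.99 over the 9 genes and 0.13 over all genes. In a fit restricted to both ages, 5 of the 9 were called, without *Isl1* (-0.89), *Lhx1* (-2.65) and *Lmo1* (-2.87). This step also changes the isolation, from sorted whole cells with HB9-GFP to nuclei with Chat-Cre. The cord segments change too, since thoracic cord was included at E10.5 but not in the RNA libraries of later ages. Isolation, segments and age cannot be told apart. At P4, *Mnx1* and *Lmo4* were called lower than at E13.5 (19.0% of all genes lower, 42.7% in either direction). At P13, *Mnx1* was called higher and *Isl1* lower than at P4 (5.8% of all genes higher, 7.54% lower and 13.3% in either direction).

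Neither edgeR nor DESeq2 called a member at P21 against P13 (edgeR called 7.3% of all genes), at P56 against P21 (0.173%) or at 2 years against P56 (0.685%). At an unadjusted p under 0.05, edgeR passed 3, 2 and 2 members in these 3 steps, and DESeq2 4, 2 and 2. Of all 15030 genes tested, edgeR passed 5138, 957 and 1882 at that limit. Over the span in which all in vivo libraries are nuclei, from E13.5 to P21, *Lhx4* was called higher and *Lhx1* and *Lhx3* lower (29.8% of all genes higher, 26.3% lower and 56.1% in either direction, median log2 fold change -0.72 over the members and 0.15 over all genes). Blood and vessel markers fell over the same span, from at least 2516 to at most 19.9 CPM, and their part in these differences was not tested. With an adjusted p under 0.05 in place of the unadjusted limit, 4 members were called at P4 against E13.5 (50.5% of all genes), 1 at P21 against P13 (11% of all genes), 2 at DIV28 against DIV7 (15.8%) and 5 at DIV28 against P21 (33.8%).

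**Figure D1:**
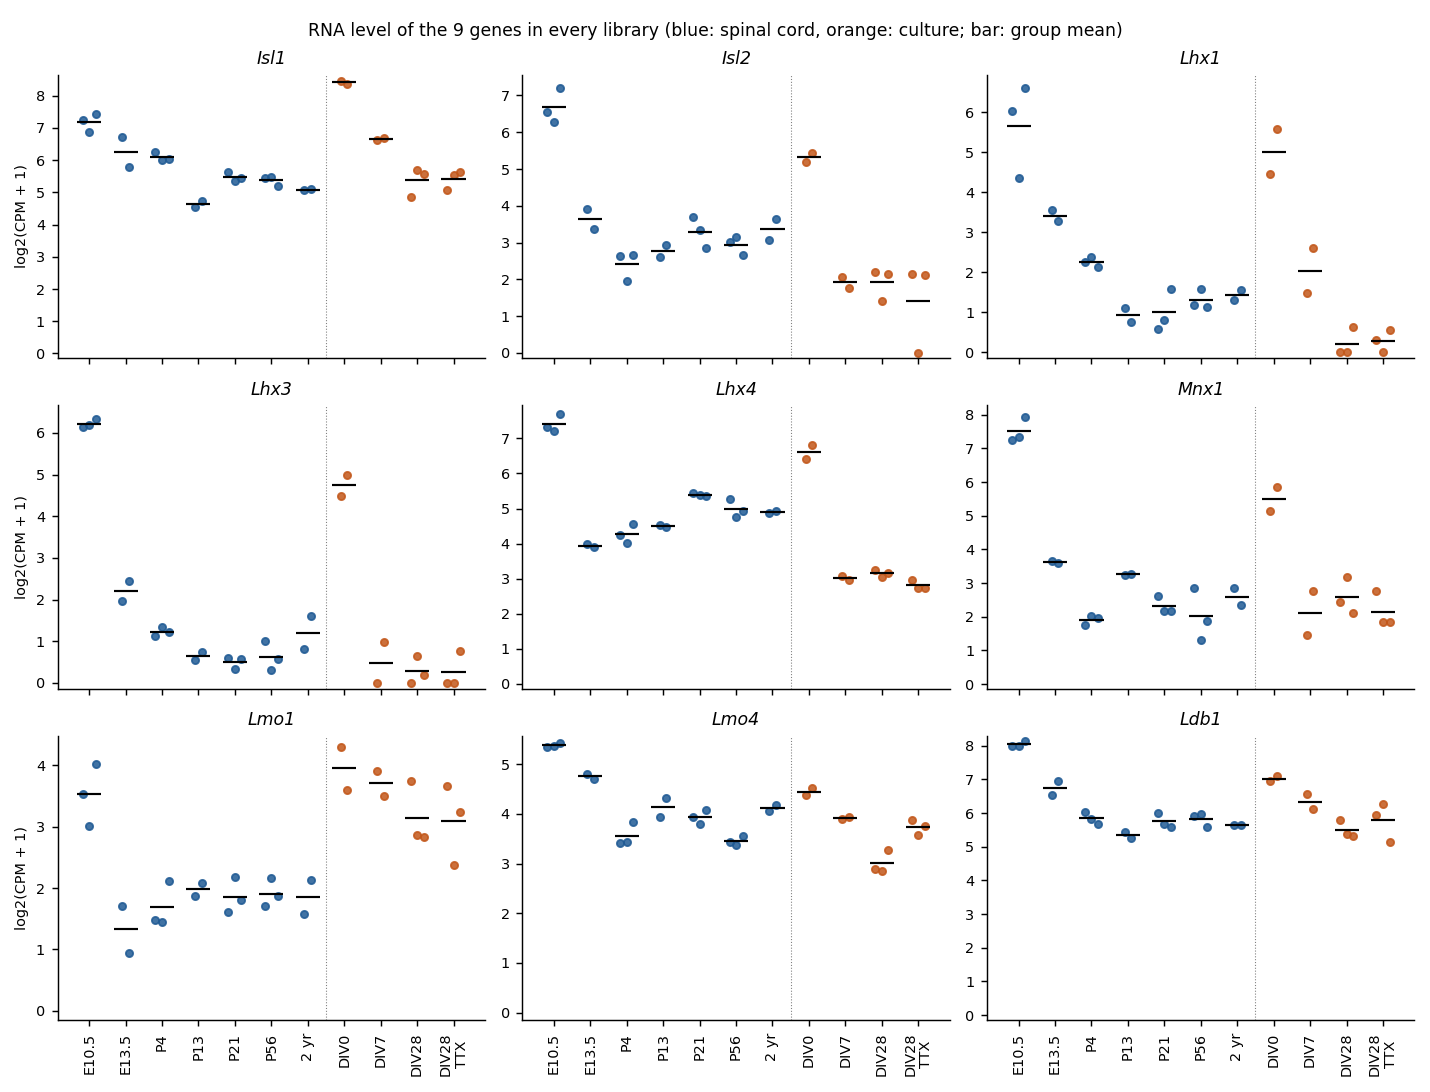
Level of each gene as log2(CPM + 1) on the y axis in every RNA library, by group on the x axis, with blue points for spinal cord, orange points for culture and a black bar for the group mean. All 9 genes had their highest tissue level at E10.5, and *Lhx4* alone was called higher at P21 than at E13.5.

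*Lhx3* and *Lhx4*, close relatives that act together in newborn motor neurons, began alike and then parted. *Lhx3* (ENSMUSG00000026934.15, chr2:26200212-26208289, minus strand) stood at 69.2, 72.3 and 80.2 CPM at E10.5, at 2.93 and 4.47 at E13.5 and at 1.2, 1.53 and 1.34 at P4. It then had 0.474 and 0.686 CPM at P13, 0.510, 0.251 and 0.496 at P21, 1.01, 0.247 and 0.480 at P56 and 0.747 and 2.04 at 2 years. Every E10.5 library was far above every later one, and the libraries from P13 on overlapped. Against E10.5, the E13.5 libraries had a log2 fold change of -4.36 (SE 0.29, adjusted p = 7.7e-10), and from E13.5 to P21 it was -3.00 (SE 0.48, adjusted p = 2.1e-05). At P21 the gene rested on 5 counts over 3 libraries, against 76 counts at E13.5, a ratio of 10.6% with an exact 95% interval of 3.33 to 25.7% that covers counting error only. V2a interneurons also use *Lhx3*, and their 5 markers summed to 61.4 to 66.1 CPM at E10.5, 14.8 to 17.9 CPM at E13.5 and at most 9.37 CPM at later in vivo ages, with *Sox14* under 1 CPM in all E10.5 libraries and *Vsx1* at E13.5. The part of such cells in the level of *Lhx3* was not tested.

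*Lhx4* stood at 159, 146 and 206 CPM at E10.5. The E13.5 libraries had 14.8 and 14 CPM, which is a log2 fold change of -3.66 (SE 0.22, adjusted p = 2.8e-10). Its group means then went up to P21, with 17.8, 15.2 and 22.5 CPM at P4, 21.9 and 21.1 CPM at P13 and 42.4, 40.7 and 40.2 CPM at P21. At P56 it was 37.8, 26.2 and 29.5 CPM and at 2 years 28.1 and 29.4 CPM. The E13.5 and P21 libraries did not overlap, and the log2 fold change between them was 1.65 (SE 0.21, adjusted p = 1.4e-06). From P13 to P21 it was 0.88 (SE 0.20, unadjusted p = 0.00042, adjusted p = 0.005), which falls short of the 2-fold limit. P21 kept 24.1% of the E10.5 mean of *Lhx4* and 0.568% of that of *Lhx3*.

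*Lhx1* (ENSMUSG00000018698.15, chr11:84518284-84525535, minus strand) varied most between replicates at E10.5, with 64.5, 19.4 and 96.5 CPM. It was 10.7 and 8.63 CPM at E13.5, 3.80, 4.22 and 3.35 CPM at P4, and between 0.510 and 1.99 CPM in the 10 libraries from P13 to 2 years. Its log2 fold change was -2.76 (SE 0.48, adjusted p = 6.3e-05, not called with only these ages fitted) from E10.5 to E13.5 and -2.98 (SE 0.66, adjusted p = 0.00051) from E13.5 to P21, the second from 178 against 13 counts, a ratio of 11.7% (exact 95% interval 6.12 to 20.5%). The call from E13.5 to P21 was lost when either E13.5 library or P21 replicate 1 or 2 was left out (log2 fold change -3.14 to -2.66). The 8 markers of other spinal interneurons, some of which use *Lhx1*, summed to 21.3 to 88.3 CPM at E10.5 and 17.3 to 23.3 CPM at E13.5, with 1 and 2 of the 8 under 1 CPM in all libraries of the group. Their part in the level of *Lhx1* was not tested.

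*Isl1* (ENSMUSG00000042258.13, chr13:116298281-116309689, minus strand), which marks motor neurons from the last division on, kept 29.7% of its E10.5 mean at P21, the largest share among the 5 LIM homeodomain genes. It had 151, 117 and 171 CPM at E10.5, 103 and 53.8 at E13.5, and 75.6, 62.9 and 64.9 at P4. The lowest in vivo values were at P13, with 22.5 and 25.7 CPM, followed by 48.0, 40 and 42.2 at P21, 42.8, 43.5 and 35.8 at P56 and 32.6 and 33.1 at 2 years. The P13 libraries lay below every other in vivo library. From P4 to P13 the log2 fold change was -1.46 (SE 0.24, adjusted p = 0.0002), and from P13 to P21 it was 0.79 (SE 0.24, adjusted p = 0.025), within the 2-fold limit. Oligodendrocyte markers were highest in these P13 libraries, 1725 to 1748 CPM against 281 to 383 CPM at P4, and their part in the dip was not tested. The fall from E10.5 to E13.5 sat at the 2-fold limit (log2 fold change -1.0, SE 0.23, adjusted p = 0.0008) and was not called with other size factors (-0.89), nor without E10.5 replicate 1 or 3 or E13.5 replicate 2 (-0.98 to -0.60). Sensory neurons express *Isl1* too, and their 4 markers summed to 48.2 to 130 CPM at E10.5, 29.9 to 43.4 CPM at E13.5 and at most 7.4 CPM later in vivo. Their part in the level of *Isl1* was not tested.

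*Isl2* (ENSMUSG00000032318.12, chr9:55538672-55546180, plus strand), a close relative that acts beside Isl1 in postmitotic motor neurons, fell further. Its levels were 93.3, 76.8 and 147 CPM at E10.5, 14 and 9.25 at E13.5 and 5.20, 2.88 and 5.35 at P4. At P13 it had 5.11 and 6.69 CPM, at P21 12, 9.05 and 6.21, at P56 7.05, 7.90 and 5.28 and at 2 years 7.47 and 11.4. The libraries from E13.5 to 2 years overlapped from age to age, apart from P4, which lay below E13.5. The log2 fold change was -3.31 (SE 0.34, adjusted p = 1.9e-07) from E10.5 to E13.5 and -0.20 (SE 0.35, adjusted p = 0.61) from E13.5 to P21.

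*Mnx1* (ENSMUSG00000001566.9, chr5:29473034-29478470, minus strand) was at 150, 159 and 245 CPM in the E10.5 cells, which were sorted on a transgene driven by *Mnx1* regulatory sequence, so that sort and level are tied. It had 11.7 and 11.1 CPM at E13.5, 2.40, 3.07 and 2.90 at P4 and 8.52 and 8.74 at P13. From P21 on it ranged from 1.48 to 6.29 CPM, with 5.10, 3.52 and 3.48 at P21. The P13 libraries were above all P4 and P21 libraries. The log2 fold changes were -4.12 (SE 0.33, adjusted p = 7.8e-09) from E10.5 to E13.5 and -1.87 (SE 0.37, adjusted p = 0.00023) from E13.5 to P4. At P13 *Mnx1* was above P4 by 1.66 on the log2 scale (SE 0.38, unadjusted p = 0.00038, adjusted p = 0.0028), a call that was lost with any of the 5 libraries left out while the value stayed between 1.56 and 1.75.

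Among the partners, *Ldb1* (ENSMUSG00000025223.15, chr19:46031570-46045214, minus strand) had the highest mean length-corrected level of the 9 genes at every in vivo age, though at P4 its range of 14.5 to 34.4 TPM overlapped the 15.4 to 32.6 TPM of *Isl1* almost wholly. In TPM, the transcript share corrected for length, it averaged 164 ± 26 (SD, n = 3) at E10.5 and 18.9 ± 5.48 (SD, n = 3) at P21. Across libraries it was 254, 256 and 280 CPM at E10.5, 92.1 and 122 at E13.5 and 62.8, 50.5 and 47.4 at P21. All later libraries were below those of E10.5. The fall from E10.5 to E13.5 was called (log2 fold change -1.39, SE 0.17, adjusted p = 1.7e-06), and the later steps were each under 2-fold.

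*Lmo4* (ENSMUSG00000028266.17, chr3:144188530-144205220, minus strand), a LIM-only protein known also from cortical neurons, had the smallest change of the 9 from E10.5 to E13.5. It had 39.7, 40.5 and 42.2 CPM at E10.5, 27.0 and 25 at E13.5 and 9.60, 9.79 and 13.2 at P4, then between 9.38 and 19.0 CPM up to 2 years. From E10.5 to E13.5 the log2 fold change was -0.74 (SE 0.17, adjusted p = 0.0011), the only one of the 9 within 2-fold, and from E13.5 to P4 it was -1.11 (SE 0.18, adjusted p = 4.0e-05), the second not called with only these ages fitted (-1.17). From P56 (9.82, 9.38 and 10.8 CPM) to 2 years (15.7 and 17.0 CPM) *Lmo4* had a log2 fold change of 0.77 (SE 0.19, unadjusted p = 0.00098, adjusted p = 0.09), with no overlap between the ages but less than 2-fold.

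*Lmo1* (ENSMUSG00000036111.8, chr7:109138572-109175207, minus strand) was the lowest of the 9 genes at E10.5 per length, at 14.4 ± 4.37 TPM (SD, n = 3). It had 10.6, 7.11 and 15.3 CPM at E10.5 and 2.28 and 0.925 CPM at E13.5, and stayed between 1.73 and 3.52 CPM from P4 to 2 years. The E10.5 libraries were above all later in vivo libraries, which overlapped. The log2 fold change from E10.5 to E13.5 was -2.99 (SE 0.47, adjusted p = 2.4e-05), not called with only these ages fitted.

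The order of the genes per length changed with age. At E10.5 *Ldb1* was followed by *Mnx1* at 115 ± 9.72 TPM, *Isl1* at 109 ± 23.7 TPM and *Isl2* at 85.8 ± 14.5 TPM (SD, n = 3 each). The range of *Isl1* (84.2 to 132 TPM) overlapped those of *Mnx1* (108 to 126 TPM) and *Isl2* (69.7 to 97.8 TPM), which did not overlap each other. At P21 *Isl1* was second at 12.3 ± 2.28 TPM, ahead of *Lmo4* at 7.56 ± 1.42 TPM and *Lhx4* at 4.69 ± 0.455 TPM, and *Mnx1* had dropped to the seventh place at 1.15 ± 0.412 TPM (SD, n = 3 each). *Lhx1* (0.477 ± 0.347 TPM) and *Lhx3* (0.137 ± 0.0551 TPM) were last, with ranges of 0.09 to 0.76 and 0.08 to 0.19 TPM that overlapped.

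Other genes of the family did not all follow the 9. Of 14 further LIM factors and cofactors, 10 were tested in vivo, since *Lhx2*, *Lhx8*, *Lhx9* and *Lmx1a* did not pass the filter. From E10.5 to E13.5, 5 of the 10 were called higher and 1 lower, with a median log2 fold change of 1.0, where 24.6% of all genes were called higher and 19.4% lower. The single-stranded DNA binding cofactor *Ssbp3*, which stabilises Ldb1, was the one lower (330 to 446 CPM, then 69.5 to 71.4 CPM, log2 fold change -2.56, SE 0.17, adjusted p = 7.5e-10). Its relative *Ssbp2* rose from E13.5 to P21 (23.4 to 33.7 CPM, then 82.9 to 101 CPM, log2 fold change 1.86, SE 0.17, adjusted p = 2.4e-08), the only one of 10 called higher there, while 6 were called lower (29.8% of all genes higher, 26.3% lower). *Lmo2*, which also works in blood and vessel cells, had 0.517 to 2.92 CPM at E10.5, 84.4 to 156 CPM at E13.5 and 2.73 to 4.78 CPM at P21 (log2 fold change from E10.5 to E13.5 6.34, SE 0.42, adjusted p = 7.2e-10), beside the blood and vessel markers given above, whose part in it was not tested.

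The list of 4 cholinergic genes holds known targets of the Isl1 and Lhx3 complex. From E13.5 to P21, *Chat*, *Ache* and *Slc5a7* were called higher and none lower (29.8% of all genes higher), with a median log2 fold change of 2.15 over the 4. *Chat*, which makes acetylcholine, went from 20.3 to 39.7 CPM at E13.5 to 133 to 157 CPM at P21 (log2 fold change 2.43, SE 0.28, adjusted p = 4.2e-07). *Chat* also drives the Cre that marked these nuclei.

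In culture *Lhx3*, *Lhx4*, *Mnx1* and *Isl1* fell between DIV0 and DIV7. From DIV0 to DIV7, these 4 of the 9 were called lower and none higher, where 11.2% of 12890 genes were called in either direction and 2.81% lower. The median log2 fold change was -3.27 over the 9 genes and 0.03 over all genes. With the library titled DIV0 replicate 3 in DIV0, no member was called in this step by edgeR. The calls of *Lhx4* (-3.32) and *Isl1* (-1.33) were lost. *Isl2*, *Lhx1*, *Lhx3* and *Mnx1* did not pass the low-count filter in that fit and were not tested. From DIV7 to DIV28 *Isl1* alone was called, lower (4.09% of all genes lower, 7.7% in either direction). Without the library titled DIV0 replicate 3 the 1 member called there was *Lhx1*, and with it in DIV0 none of the members tested was called. The 4 astrocyte markers summed to 3.41 to 3.67 CPM at DIV0, 49.5 to 145 CPM at DIV7 and 10.9 to 50 CPM at DIV28, and the part of astrocyte RNA was not tested. The step from DIV0 to DIV7 also takes in the plating, which the study says many cells do not survive. Time in culture, the move onto astrocytes and cell loss cannot be told apart.

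*Lhx4* had 84.6 and 111 CPM at DIV0, 7.43 and 6.73 at DIV7 and 8.44, 7.35 and 7.89 at DIV28. The DIV0 libraries stood apart from all later ones, which lay close together. The log2 fold change from DIV0 to DIV7 was -3.80 (SE 0.32, adjusted p = 1.4e-05) and from DIV7 to DIV28 it was 0.16 (SE 0.29, adjusted p = 0.74). *Lhx3* went from 21.5 and 30.7 CPM at DIV0 to 0 and 0.961 CPM at DIV7, or 196 against 4 counts, a ratio of 2.22% (exact 95% interval 0.599 to 5.78%, counting error only). Its fitted change (adjusted p = 0.0061) was not called by DESeq2 or with any of the 4 libraries left out. At DIV28 *Lhx3* had 0, 0.556 and 0.138 CPM.

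*Mnx1* fell from 34.5 and 56.8 CPM at DIV0 to 1.77 and 5.77 CPM at DIV7 (log2 fold change -3.55, SE 0.66, adjusted p = 0.0026), with 4.44, 8.09 and 3.32 CPM at DIV28. The call was lost without DIV0 replicate 2 (-3.15) or DIV7 replicate 1 (-3.03). *Isl1* fell in both steps, from 350 and 328 CPM at DIV0 to 96.9 and 102 CPM at DIV7 (log2 fold change -1.78, SE 0.31, adjusted p = 0.0018) and to 28.0, 50.8 and 46.4 CPM at DIV28 (-1.24, SE 0.27, adjusted p = 0.011). No library of a later day reached the level of an earlier one. The first *Isl1* call was lost without either DIV7 library (-1.79 and -1.86), and the second without either DIV7 library or DIV28 replicate 1 or 3 (-1.33 to -1.04) and with only the compared groups fitted (-1.24).

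*Lhx1* went from 20.8 and 46.9 CPM at DIV0 to 1.77 and 5.04 at DIV7 and 0, 0 and 0.554 at DIV28. Over DIV28 and DIV0 it had 4 against 250 counts, a ratio of 0.436% (exact 95% interval 0.118 to 1.13%). The step from DIV7 to DIV28 was not called (unadjusted p = 0.0022). It was called without DIV28 replicate 3, the library titled DIV0, in which all 4 counts lie. It was also called with same-numbered libraries as a block, though a pairing of DIV7 with DIV28 libraries is not established here. *Isl2* fell from 35.5 and 42.6 CPM at DIV0 to 3.18 and 2.40 CPM at DIV7 with no overlap (log2 fold change -3.82, SE 1.03, unadjusted p = 0.003, adjusted p = 0.019), short of the study's limit on p. *Lmo1* kept 55.4% and *Lmo4* 34.2% of the DIV0 mean at DIV28, and *Ldb1* 34.7%. None of these 3 partners was called at either step.

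Blocking action potentials changed none of the 9 genes past the limits. With tetrodotoxin 0 of 9 were called by edgeR or DESeq2 (0.683% of all genes called), and at an unadjusted p under 0.05 each tool passed only *Lmo4*. Of all 12890 genes tested, edgeR passed 1009 at that limit. *Lmo4* was at 6.44, 6.24 and 8.72 CPM in untreated DIV28 cultures and 13.6, 10.9 and 12.5 CPM with tetrodotoxin (log2 fold change 0.79, SE 0.29, unadjusted p = 0.018, adjusted p = 0.45). It was higher with tetrodotoxin in 3 of 3 same-numbered pairs, with no overlap. The p-values here come from a fit that does not use the pairs. With same-numbered libraries as a block, no member was called either. *Lhx4* had 8.44, 7.35 and 7.89 CPM without and 6.80, 5.62 and 5.65 CPM with tetrodotoxin, lower in 3 of 3 pairs and also with no overlap (log2 fold change -0.39, SE 0.25, adjusted p = 0.83). The other 7 genes overlapped between the groups. Among them *Isl2* was lower with tetrodotoxin in 3 of 3 pairs, at 3.56, 1.67 and 3.46 CPM without and 3.40, 0 and 3.30 CPM with it (log2 fold change -0.48, SE 0.85, adjusted p = 0.98). *Isl1*, at 32.5, 44.9 and 48.3 CPM with tetrodotoxin, had a log2 fold change of 0.00 (SE 0.25).

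*Lhx4* and *Isl2* were called higher in culture than in tissue early and lower late, and the other genes were not called in both. At DIV0 against E13.5, 6 of the 9 genes were called higher in culture and none lower, where 15.1% of 15521 genes were called higher and 39.4% in either direction. The median log2 fold change was 1.91 over the members and -0.17 over all genes. At DIV28 against P21, *Lhx4*, *Isl2* and *Lmo4* were called lower in culture and none higher (13.1% of all genes lower, 26.3% in either direction). The E13.5 libraries carried the blood and vessel RNA given above, whose part was not tested, and both sides are nuclear RNA. The study describes its stem cell derived motor neurons as cervical, while the tissue RNA came from brachial and lumbar cord. Culture and cord segment cannot be told apart here. With the library titled DIV0 replicate 3 in DIV0, 1 member, *Lmo1*, was called at DIV0 and 2 at DIV28, and without that library 4 were called at DIV28.

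**Figure D2:**
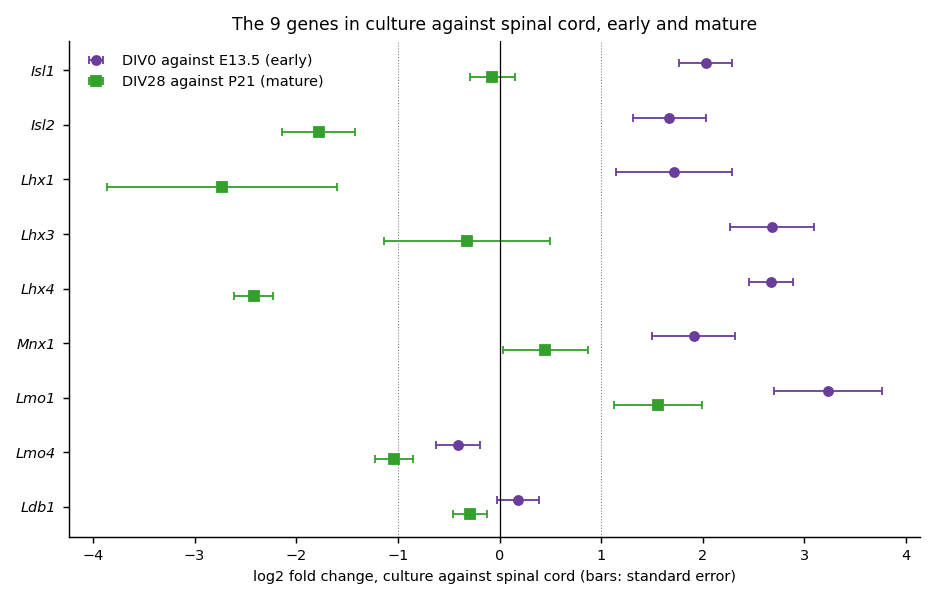
Log2 fold change of culture against spinal cord on the x axis for each gene on the y axis, with circles for DIV0 against E13.5, squares for DIV28 against P21, bars for the standard error, and dotted lines at 2-fold. *Lhx4* lies at 2.67 early and -2.42 late, on opposite sides of the 2-fold lines, as does *Isl2* at 1.67 and -1.78, whose calls were lost without single libraries.

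*Lhx4* was 2.67 higher on the log2 scale at DIV0 than at E13.5 (SE 0.22, adjusted p = 2.5e-09) and fell by 2.42 on that scale at DIV28 against P21 (SE 0.19, adjusted p = 1.2e-09). The difference between its change in culture (DIV28 minus DIV0) and its change in tissue (P21 minus E13.5), tested as an interaction in the joint fit, was -5.09 (SE 0.29, adjusted p = 2.4e-11). P21 stood at 285% of the E13.5 mean and DIV28 at 8.06% of the DIV0 mean. *Isl2* was 1.67 higher at DIV0 than at E13.5 (SE 0.36, adjusted p = 0.00036), a call lost without E13.5 replicate 2 (1.39) or DIV0 replicate 2 (1.46) and with only the compared groups fitted (1.68). At DIV28 against P21 its log2 fold change of -1.78 (SE 0.36, adjusted p = 0.00029) was not called without DIV28 replicate 2 (-1.40) or with only the compared groups fitted (-1.73). *Isl2* had an interaction of -3.45 (SE 0.51, adjusted p = 5.0e-06) and *Isl1* of -2.10 (SE 0.34, adjusted p = 1.7e-05). These 3 were the members called for the interaction, where 17.5% of all genes were called lower and 41.7% in either direction, and the median was -2.10 over the 9 genes and 0.16 over all genes. With an adjusted p under 0.05 in place of the unadjusted limit, 7 members were called (57.8% of all genes). Without DIV28 replicate 3 there were 4 called, and with it in DIV0 there was 1, *Lhx4*. *Isl1* differed from the other 2 in that its DIV28 level was 96.2% of that at P21 (log2 fold change -0.07, SE 0.22, adjusted p = 0.81), so its difference lay in the high DIV0 level.

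*Lhx3* and *Mnx1* were also higher at DIV0 than at E13.5 (log2 fold changes 2.68, SE 0.41, adjusted p = 8.8e-06, and 1.91, SE 0.41, adjusted p = 0.00036). The *Mnx1* call was lost without E13.5 replicate 2 (1.87) or DIV0 replicate 2 (1.43). At DIV28 and P21 their values overlapped, *Lhx3* being at or under 0.556 CPM in both groups. *Lmo1* was higher in culture at DIV0 (3.23, SE 0.53, adjusted p = 1.9e-05), and at DIV28 its 12.4, 6.30 and 6.09 CPM lay above the 2.04, 3.52 and 2.48 CPM of P21 without reaching the limit on p (log2 fold change 1.56, SE 0.43, unadjusted p = 0.0015, adjusted p = 0.0043). *Lmo4* was lower at DIV28 than at P21, with 14.3, 12.8 and 15.9 CPM in tissue (log2 fold change -1.04, SE 0.19, adjusted p = 0.00012). Its value fell inside 2-fold without DIV28 replicate 1 or 2 or P21 replicate 3 (-0.98 to -0.93), and the call was also lost with only the compared groups fitted (-1.03).

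Open chromatin around the genes was widest in the early groups. Peaks, called by the authors in each library, were limited to the 75000 with the lowest p per library, and a region was counted as open in a group when peaks of both its libraries overlapped there. Regions within a gene or 50 kb of it were taken. There were 132 such regions, of 173690 over the genome, and 104 of them were distal, more than 2 kb from an annotated start. At DIV0, 86 of the 132 (65.2%) were open, where 34.4% of all regions were. At E13.5, 75 (56.8%) were open, against 35.8% of all regions, and at E10.5, 53 (40.2%), against 24.7%. At P4 and at P13 it was 51 (38.6%), against 32.4% and 35.3%, and at DIV7 40 (30.3%), against 28.1%. From P21 on in tissue the share was 34.1% at P21, 31.1% at P56 and 31.8% at 2 years, against 36.1%, 32.8% and 34.8%, and at DIV28 it was 27.3%, against 33.9%. With 2 libraries per group these shares carry no test, the depth of the ATAC-seq libraries is unknown, and peak heights of E13.5 were high over the whole library, so presence is compared and not height. The cut at 75000 peaks fell at a −log10 p of 2.18 in E10.5 replicate 1 and 25.59 in DIV28 replicate 1. A region not counted as open can therefore hold a peak below the cut.

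**Figure D3:**
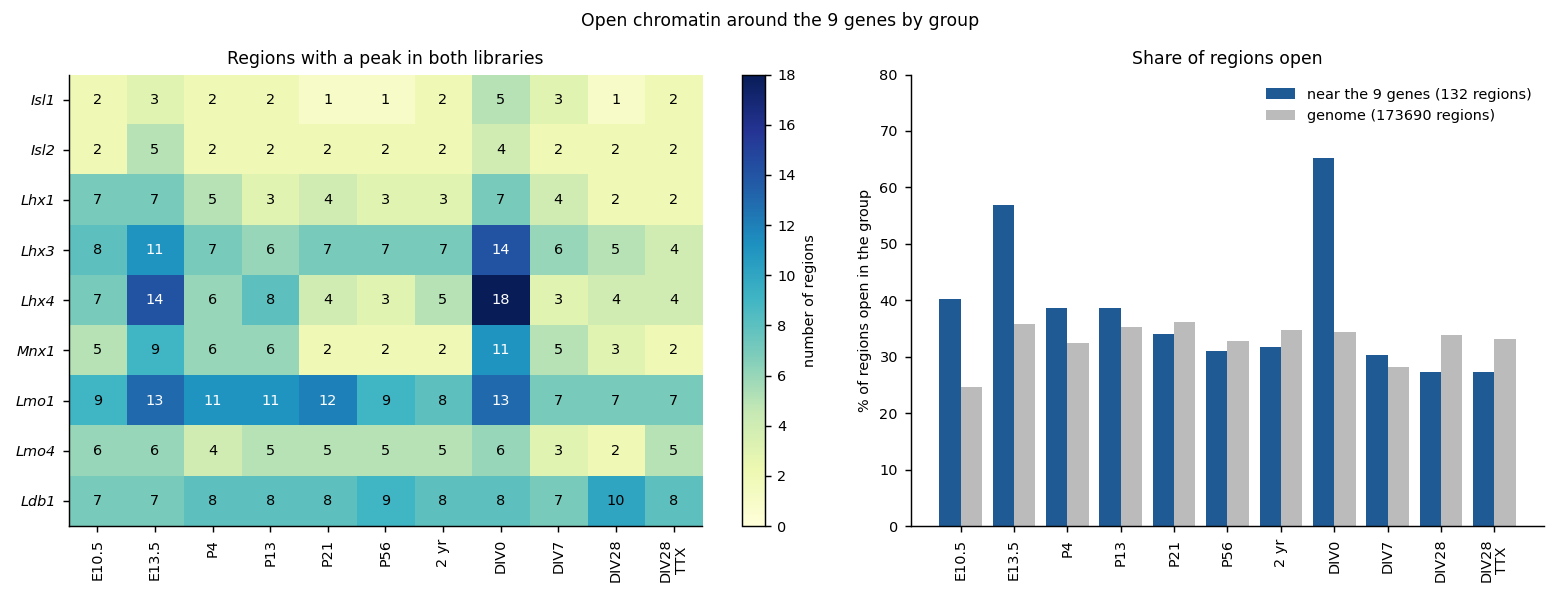
Left, number of regions near each gene (rows) with a peak in both libraries of a group (columns); right, percentage of regions open in each group for the 132 regions near the 9 genes (blue) and all 173690 regions (grey). *Lhx4* goes from 18 open regions at DIV0 and 14 at E13.5 to 4 at both P21 and DIV28.

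Regions open at E13.5 and DIV0 but not in the mature groups were most numerous near *Lhx4*, *Mnx1* and *Lhx3*. Of the 132 regions, 21 (15.9%) were open at both E13.5 and DIV0 and in no group from P21 or DIV28 on, a class that holds 4.7% of all regions. *Lhx4* had 8 of the 21, *Mnx1* 5 and *Lhx3* 4, where 24, 15 and 21 regions in all lay near these genes. Longer genes have wider windows. *Mnx1* region 9, 19.0 kb upstream of the start, had fold enrichments of 18.1 and 15.2 at E13.5 and 11.2 and 10.4 at DIV0. *Isl1* region 1, 30.1 kb from the gene start on the 3′ side, had 12.2 in replicate 1 of E13.5, a lower value in replicate 2, and 17.0 and 12.5 at DIV0. Neither had a peak among the top 75000 of any other library. At E10.5 the HB9-GFP transgene carries copies of *Mnx1* regulatory sequence, whose peaks and those of the gene cannot be told apart. *Ldb1* had between 7 and 10 of its 12 regions open in every group, but of the 6 open in all 11 groups 4 were promoters of its neighbours *Armh3*, *Hps6*, *Pprc1* and *Nolc1*.

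Mature tissue and mature culture shared some regions, and each had others of its own. In P21, P56, 2 years and both DIV28 groups alike, 22 of the 132 regions were open (16.7%, and 13.8% of all regions). In P21, P56 and 2 years but in neither DIV28 group, 13 of the 132 regions were open (9.85%, and 10% of all regions), with 5 at *Lhx3* and 4 at *Lmo4*. *Lhx4* region 4, 70.1 kb from the upstream start and beyond the 3′ end of the gene, had fold enrichments of 3.70 and 5.81 at P21 and 13.8 and 14 at DIV0. It had no peak among the top 75000 in culture from DIV7 on. *Lmo4* region 14, at -36.4 kb from the start, had 5.54 and 7.67 at P21 and 8.58 and 7.61 at DIV0, and likewise no peak of that rank in culture from DIV7 on. In both DIV28 groups but at none of the 3 mature ages, 5 regions were open (3.79%, and 9.55% of all regions). *Lmo4* region 2, 51.6 kb on the 3′ side, was at 3.21 and 8.36 at DIV7, 17.3 and 12.6 at DIV28 and 12.3 and 9.48 with tetrodotoxin. *Ldb1* region 5, 24.7 kb on the 3′ side, was at 13.3 and 10 at DIV28 and 14.6 and 10.7 with tetrodotoxin, with a peak in 1 of 2 libraries at DIV0 (5.34) and at DIV7 (11).

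**Figure D4:**
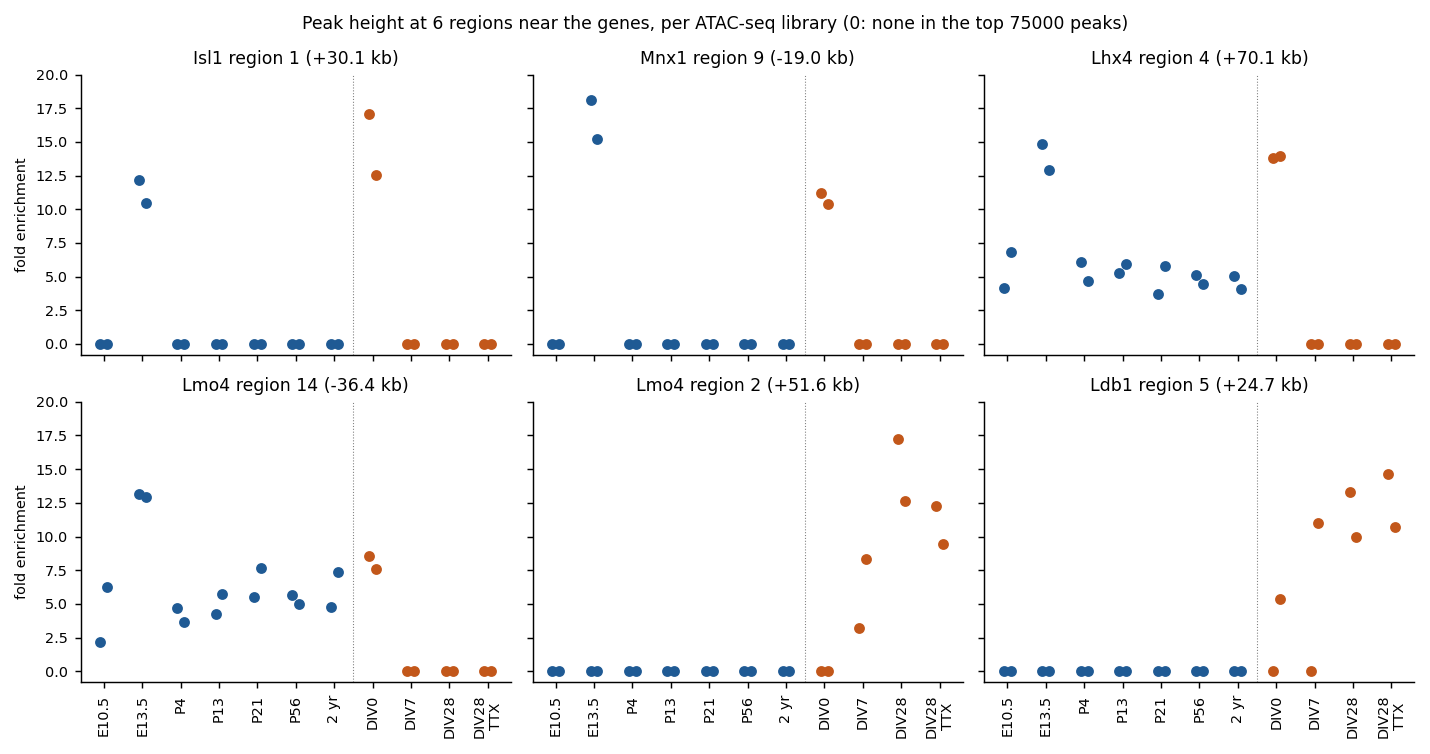
Fold enrichment of the peak on the y axis in each ATAC-seq library, by group on the x axis, at 6 regions, with 0 where no peak was among the top 75000 of the library. The *Isl1* and *Mnx1* regions show peaks at E13.5 and DIV0, the *Lhx4* region and *Lmo4* region 14 in tissue and DIV0, and *Lmo4* region 2 and *Ldb1* region 5 in culture.

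All 5 of the culture regions held TGANTCA in their central 300 bases, printed above for *Lmo4* region 2 and *Ldb1* region 5. Of the 16580 regions of that class over the genome 68.0% held it, while over all regions the share was 24.9% and over the 132 regions it was 15.9%. Among the 51 regions seen only in E10.5, E13.5 or DIV0 it was 11.8%, beside 8.92% of all such regions. TAATTA was found in 15.9% of the 132 regions and 9.65% of all regions, and in 23.5% of the early-only regions and 16.4% of all such regions. DIV28 with and without tetrodotoxin differed at 12 of the 132 regions (9.09%), beside 15.2% of all regions.

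At the starts themselves, all 9 genes had a promoter peak in both libraries of each of the 9 groups other than the DIV28 groups, where 62.8 to 66.6% of 21938 coding genes did (66.4% at E10.5, 64.5% at E13.5, 65.5% at P4, 64.6% at P13, 63.5% at P21 and at 2 years, and 63.2% at DIV7). In DIV28 with or without tetrodotoxin 7 of 9 did (61.1% and 61.8% of coding genes), the exceptions being *Lhx1* and *Lhx3*. *Lhx1* had a promoter peak in all 4 of these libraries, with fold enrichments of 6.3 and 5 at DIV28 and 7.65 and 3.96 with tetrodotoxin, but within the top 75000 in 1 library of each group. A promoter peak was present at *Lhx1* and *Lhx3* in tissue at P21, where their RNA was 1.80 and 0.568% of the E10.5 mean. Such a peak could lie at any annotated start, and for *Lhx3* the start differed between groups. Its P21 peaks, of 4.03 and 4.76, lay at start 3, numbered 5′ to 3′. At P21 start 1 had only peaks of 2.53 and 2.41, outside the top 75000, and start 2 had none within 500 bases.

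Peaks at the 2 starts of *Lhx4* differed by group. The upstream start had a peak at E10.5 (fold enrichment 3.05 and 4.79), E13.5 (16.55 and 12.1) and DIV0 (6.11 and 6.77), and no deposited peak of any rank within 500 bases in the other 16 libraries. The downstream start had a peak in all 22 libraries, at 5.15 and 4.72 at P21 and 7.60 and 9.17 at DIV28. These are the windows printed above, and the upstream one is the CG-poor one. The groups with the upstream peak are those with high *Lhx4* RNA at E10.5 and DIV0, but also E13.5, where the RNA was 14.8 and 14 CPM, below P21 at 42.4, 40.7 and 40.2 CPM without that peak.

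*Lhx3* has 4 annotated starts in GENCODE vM21, numbered here 5′ to 3′. At starts 1 and 2 both libraries of E10.5, E13.5 and DIV0 had peaks within the top 75000, of 3.38 and 3.96 at E10.5, 6.12 and 4.77 at E13.5 and 4.57 and 3.76 at DIV0 for start 1. From P13 to 2 years start 1 had weaker peaks, outside the top 75000, of 1.82 to 2.85 in all 8 libraries. Starts 3 and 4 lie so close that they share most peaks, which reached 3.72 to 5.8 in all 8 libraries from P13 to 2 years and 3.44 and 3.23 at DIV0. At E10.5 start 3 had no peak and start 4 had 1 of 2.7, in replicate 2. No start of *Lhx3* had a peak within the top 75000 in any DIV28 or tetrodotoxin library, and weaker ones were found in 1 library of each. The starts of *Lhx4* and *Lhx3* and the regions shown one by one were chosen for description after their values were seen.

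**Figure D5:**
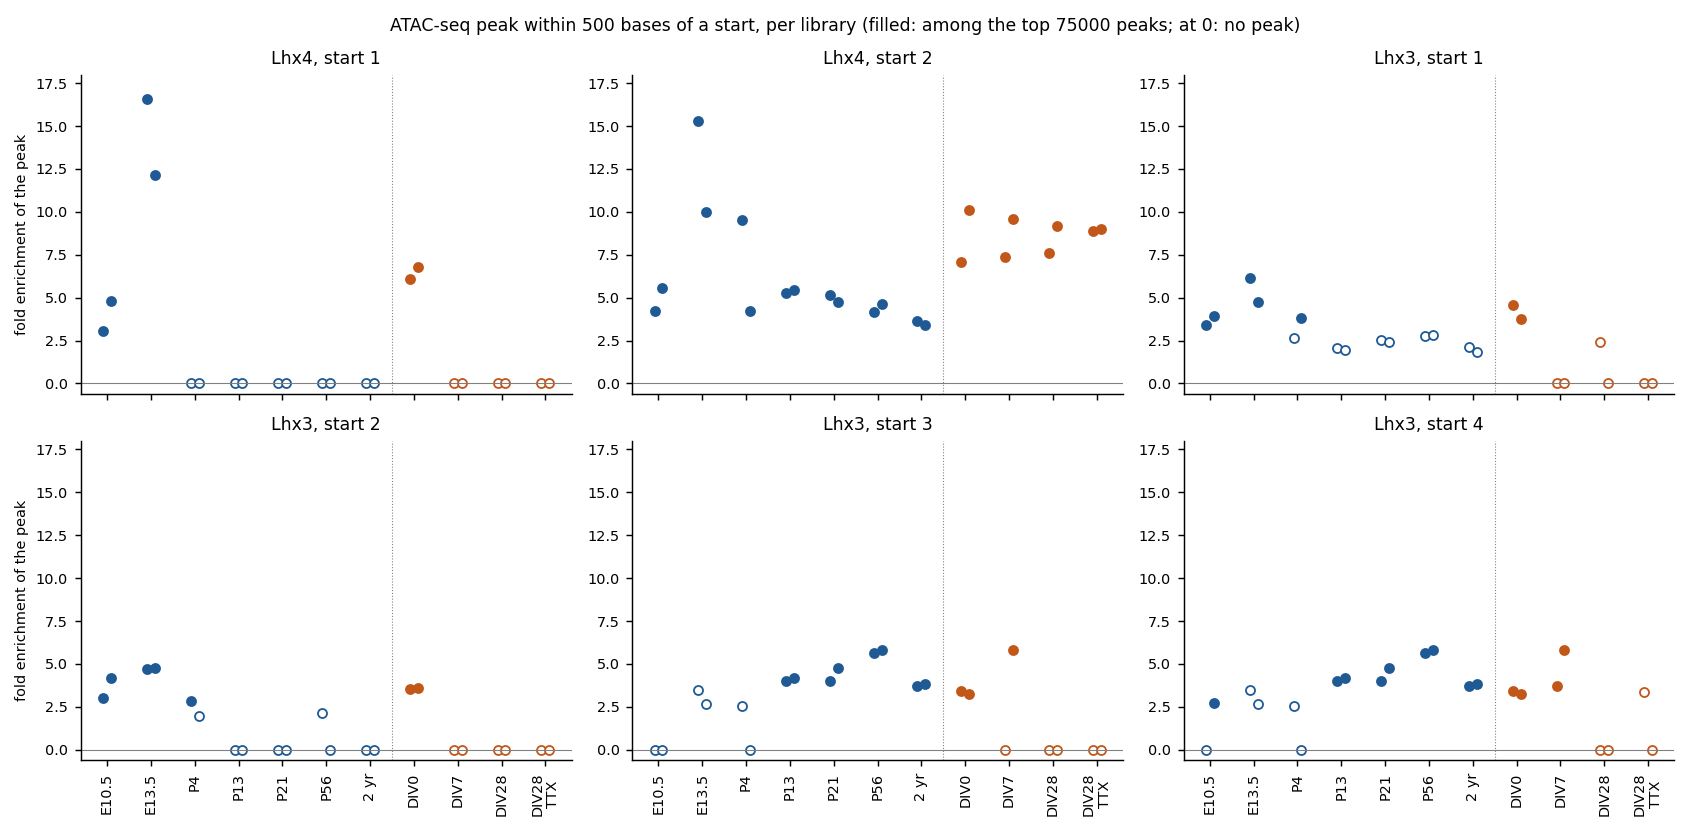
Fold enrichment of the ATAC-seq peak within 500 bases of each annotated start of *Lhx4* (2 starts) and *Lhx3* (4 starts) on the y axis, per library by group on the x axis, with filled points for peaks among the top 75000 of the library, open points for weaker peaks and 0 for none. *Lhx4* start 1, the upstream one, has points above 0 at E10.5, E13.5 and DIV0, and start 2 in all 22 libraries.

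Over the 11 RNA group means of log2(CPM + 1), the genes most like each member were found among 15561 tested genes, as a description over groups that share libraries and design. *Lhx4* was most like *Hoxc4* (Pearson's r = 0.968), *Slc10a4* (0.956) and *Shisal1* (0.947). *Lhx3* was most like *Nhlh2* (0.993), *Kif24* (0.987) and *Angel1* (0.983), and *Mnx1* like *Psat1* (0.972), *Hif1an* (0.968) and *Hoxb2* (0.966). *Isl1* was most like *Rarb* (0.969) and *Isl2* like *Bcl7a* (0.985). Within the 9, *Lhx3* ran with *Mnx1* (0.96) and *Lhx1* (0.96), while *Lmo1* ran with no other member above 0.62.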

How the data were processed

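RNA-seq was measured in 28 libraries and ATAC-seq in 22 libraries of 11 groups. For RNA, the authors deposited expected counts and TPM per gene, made with STAR 2.5.2b and RSEM 1.3.0 on mm10 (versions from the submitters' processing notes), from a strand-marking kit counted without strand. For ATAC-seq, the authors deposited peaks called in each library at p 0.01 with MACS2 2.2.7.1 after BWA 0.7.1.7 and SAMtools 1.7.2, with a fold enrichment ratio over local background and a −log10 p per peak.

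Expected counts were rounded, and a gene was kept if 1 or more groups had all replicates at or above 5 CPM. edgeR 4.0.16 (R 4.3.3; TMM scaling, quasi-likelihood test) was fitted to in vivo libraries, culture libraries and both jointly, with Benjamini-Hochberg adjustment over all genes. CPM values use TMM scaling and compare 1 gene across libraries, while TPM compares genes. A call was an unadjusted p under 0.001 with a 2-fold change. Alternatives were DESeq2 1.42.0, other size factors, no low-count filter, other call limits, fewer libraries and other peak rules. Tests were checked on simulated data. Peaks were limited to the top 75000 per library by −log10 p, with an overlap of 1 bp, and a promoter peak lay within 2 kb of a start. Tables and plots used Python 3.11.15, pandas 2.3.3, numpy 2.4.6 and matplotlib 3.10.9. Total counts of 2704682 to 21823500 per RNA library set the precision, and ATAC-seq depth is unknown.

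The members and lists were chosen with earlier results of these data known. All 9 members are named in every comparison. Of the other lists at most 4 called genes were named in a comparison, and of the nearest patterns the 3 with the highest correlation over 11 group means. The study says that DIV28 cultures with and without tetrodotoxin were grown in parallel, and same-numbered libraries deviated together (correlations 0.579, 0.489 and 0.662), so these numbers pair samples. In vivo numbers are only names.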

Additional observations from a re-analysis of the deposited data

Results flagged for a closer look

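The change in culture from DIV0 to DIV28 differed from the change in tissue from E13.5 to P21 for 3 of the 9 genes, by the interaction term of the joint edgeR fit. The difference was -5.09 on the log2 scale for *Lhx4*, -3.45 for *Isl2* and -2.10 for *Isl1*. With the library titled DIV0 replicate 3 in DIV0, *Isl2* (-3.00) and *Isl1* (-1.62) were no longer called. Groups of 2 or 3 libraries are too small for a search for outlying samples.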

How the results depend on the processing

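Counts of members called, in edgeR unless said, depended on these settings. With only the compared groups fitted, there were 5 from E10.5 to E13.5, 1 from E13.5 to P4, 0 from DIV7 to DIV28 and 1 at DIV28 against P21. Not every member passed the low-count filter in each of these smaller fits. With an adjusted p under 0.05, there were 4 from E13.5 to P4, 1 from P13 to P21, 2 from DIV7 to DIV28, 5 at DIV28 against P21 and 7 for the interaction. Without the low-count filter, there were 5 from E13.5 to P4, 1 from P13 to P21, 5 from E13.5 to P21, 2 from DIV7 to DIV28 and 5 at DIV28 against P21. DESeq2 called 5 for the interaction. With the library titled DIV0 replicate 3 in DIV0, there were 0 from DIV0 to DIV7, 0 from DIV7 to DIV28, 1 at DIV0 against E13.5 and 1 for the interaction. In the culture fit of this setting *Isl2*, *Lhx1*, *Lhx3* and *Mnx1* did not pass the low-count filter. The moved library had 3.46, 0.554, 0.138 and 3.32 CPM of them. The filter asks for 5 CPM in all replicates of a group, so DIV0 no longer kept these genes. The replicate block gave 2 from DIV7 to DIV28, adding *Lhx1* (-6.45), added *Mnx1* from E13.5 to P21 (-1.47) and *Lhx1* from DIV0 to DIV7 (-3.32), and changed no other call, with 0 for tetrodotoxin. The block ties same-numbered libraries across all groups of a fit. The pairs described above join only DIV28 libraries with and without tetrodotoxin, so the added calls do not rest on known pairs. Leaving out 1 library gave 7 to 8 from E10.5 to E13.5, 2 to 3 from E13.5 to P4, 1 to 1 from P4 to P13, 0 to 0 from P13 to P21, P21 to P56, P56 to 2 years and with tetrodotoxin, 2 to 3 from E13.5 to P21, 1 to 3 from DIV0 to DIV7, 0 to 1 from DIV7 to DIV28, 4 to 6 at DIV0 against E13.5, 1 to 4 at DIV28 against P21 and 3 to 4 for the interaction. Of 1352 values of single members under other settings, 43 changed sign, 0 of them with a call. The number of regions open near members was 202 with all deposited peaks, 80 within 20 kb and 206 within 100 kb. Low counts limit the precision for *Lhx3* and *Lhx1* at late stages.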
